A study of Mus musculus with 8 samples.

Results

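Open chromatin in mouse liver cells was compared between 2 peak lists of the Sox9 set, one named Tumor and the other named Prog-like. A peak is a stretch of genome that the authors called as open. Overlapping peaks of the Tumor Sox9 and Prog-like Sox9 lists were merged where they shared at least 1 bp, and each merged region was classed as holding peaks of Tumor only, of Prog-like only or of both. The 2 lists gave 90640 regions, against 138775 in the union of the 5 lists of the series. Of the 90640, 23198 were Tumor only, 51174 Prog-like only and 16268 both.

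The cells came from an Rb family Triple Knock Out mouse model of hepatocellular carcinoma, and every group shares the floxed alleles and the Cre recombination that the model needs. Livers or macroscopic lesions were digested with enzymes, and YFP+ cells, in which Cre had acted, were sorted by flow cytometry with fractions set by Thy1 and Epcam on the surface. The labels list 8 samples in 5 groups: EpCam_High_CK19 (2 samples), EpCam_High_Sox9 (1), Thy1+ CK19 (2), Thy1+ Sox9 (1) and Epcam- (2). No sample carries the name Tumor or Prog-like, so both lists are treated under the authors' names and tied to no sorted group. The sources used here do not state what Sox9 and CK19 mean in these names, the promoter that drove Cre, the age and sex of the mice, or the number of animals or libraries behind each list. Since each condition has a single list, no spread between replicates can be given and no difference between conditions was tested. Read depth is unknown, and each interval below is an exact Clopper-Pearson 95% interval that covers counting error only.

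ATAC-seq uses a transposase that cuts and tags DNA where nucleosomes leave it free, so its peaks mark promoters and enhancers that proteins can reach. In hepatocytes the factors HNF4 and C/EBP bind the promoters of albumin, fibrinogen and metabolic genes and keep them open. In macrophages, among them the Kupffer cells that reside in the liver, PU.1 (gene Spi1) does the same at genes for receptors and phagocytosis. Bile duct cells and liver progenitors share Sox9, Epcam and keratin genes. Rb proteins hold back E2F factors, which drive genes of the cell cycle.

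The promoters below show what each list held at genes of these cell types. They are the 250 bases before a gene start, written 5′ to 3′ on the gene's strand, from the RefSeq promoter table of GRCm38.p6, which is mm10 under its other name. Capitals mark 3 short motifs on either strand: the HNF4 motif CAAAGTCCA, the C/EBP motif TTGCNNAA and the PU.1 motif GAGGAA. The first 4 had a Tumor peak over the promoter and no Prog-like Sox9 peak there. They were picked after the matches were seen, for a C/EBP or HNF4 match. They are Alb (chr5:90460620-90460869, + strand), which encodes albumin, and Fga (chr3:83025903-83026152, + strand), which encodes a fibrinogen chain. Next come Cyp3a11 (chr5:145879855-145880104, - strand), the gene of an enzyme that breaks down drugs, and Cyp8b1 (chr9:121916306-121916555, - strand), that of a bile acid enzyme.
Alb: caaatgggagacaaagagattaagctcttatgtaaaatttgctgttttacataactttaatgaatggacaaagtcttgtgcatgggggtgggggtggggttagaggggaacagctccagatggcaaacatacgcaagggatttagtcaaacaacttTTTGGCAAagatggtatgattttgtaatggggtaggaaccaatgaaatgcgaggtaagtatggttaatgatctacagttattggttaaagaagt
Fga: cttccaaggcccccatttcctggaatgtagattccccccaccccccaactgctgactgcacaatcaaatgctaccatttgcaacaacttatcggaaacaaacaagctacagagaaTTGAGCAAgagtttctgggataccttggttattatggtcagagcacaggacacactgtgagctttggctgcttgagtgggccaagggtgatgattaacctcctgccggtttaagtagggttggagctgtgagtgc
Cyp3a11: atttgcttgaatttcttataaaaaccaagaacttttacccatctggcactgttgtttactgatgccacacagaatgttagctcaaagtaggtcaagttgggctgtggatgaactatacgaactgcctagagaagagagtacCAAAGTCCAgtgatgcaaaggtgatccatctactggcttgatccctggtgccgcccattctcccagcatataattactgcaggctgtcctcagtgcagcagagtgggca
Cyp8b1: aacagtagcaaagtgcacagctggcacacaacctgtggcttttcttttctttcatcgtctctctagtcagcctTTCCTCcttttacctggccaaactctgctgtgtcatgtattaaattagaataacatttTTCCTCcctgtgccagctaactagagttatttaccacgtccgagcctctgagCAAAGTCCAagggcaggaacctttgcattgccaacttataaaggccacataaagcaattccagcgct
The other 4 had a Prog-like Sox9 peak, still present with lists of equal length, and no Tumor peak. They were picked in the same way for a PU.1 match. They are Mrc1 (chr2:14229164-14229413, + strand), the macrophage mannose receptor gene, and Vsig4 (chrX:96293439-96293688, - strand), a complement receptor gene of Kupffer cells. The last are Cd68 (chr11:69666171-69666420, - strand), which encodes a lysosomal protein of macrophages, and Marco (chr1:120505025-120505274, - strand), a scavenger receptor gene.
Mrc1: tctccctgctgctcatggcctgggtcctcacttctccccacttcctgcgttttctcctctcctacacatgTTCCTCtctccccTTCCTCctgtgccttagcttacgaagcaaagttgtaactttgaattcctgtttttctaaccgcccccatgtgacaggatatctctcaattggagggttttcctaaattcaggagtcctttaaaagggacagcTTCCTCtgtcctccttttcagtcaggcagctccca
Vsig4: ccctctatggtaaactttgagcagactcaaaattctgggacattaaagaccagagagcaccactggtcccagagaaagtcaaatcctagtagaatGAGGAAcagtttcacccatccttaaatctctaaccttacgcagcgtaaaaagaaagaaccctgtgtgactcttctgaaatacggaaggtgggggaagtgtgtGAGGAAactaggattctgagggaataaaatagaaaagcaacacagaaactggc
Cd68: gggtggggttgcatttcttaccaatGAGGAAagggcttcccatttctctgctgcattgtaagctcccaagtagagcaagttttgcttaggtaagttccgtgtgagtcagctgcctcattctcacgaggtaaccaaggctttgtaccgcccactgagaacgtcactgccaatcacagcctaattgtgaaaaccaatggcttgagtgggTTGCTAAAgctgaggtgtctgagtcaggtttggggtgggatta
Marco: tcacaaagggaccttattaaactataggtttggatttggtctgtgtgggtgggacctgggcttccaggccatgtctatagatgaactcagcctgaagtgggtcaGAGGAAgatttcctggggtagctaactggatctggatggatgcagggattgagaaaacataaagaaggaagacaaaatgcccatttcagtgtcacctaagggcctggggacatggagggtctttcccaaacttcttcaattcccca
Cyp8b1 holds 2 PU.1 matches beside its HNF4 match, and Cd68 holds 1 C/EBP match, so these letters do not sort the promoters one by one. Among all promoters of the listed marker and pathway genes, a PU.1 motif stood in 16 of 63 with a Tumor peak alone and in 32 of 54 with a Prog-like peak alone. A C/EBP motif stood in 5 of 63 and in 9 of 54, and the HNF4 motif in 2 of 63 (Cyp3a11 and Cyp8b1) and in 0 of 54.

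The lists differed in length, at 39644 peaks in Tumor and 67855 in Prog-like Sox9, and in the significance the peak caller gave, which also depends on the unknown read depth. The median of the authors' −log10 q was 8.78 in Tumor and 25.3 in Prog-like Sox9, and median widths were 495 and 399 bp. Results are therefore given for the lists as deposited and at equal length, where the 39644 peaks of highest −log10 p were kept in each list, which leaves the Tumor list whole. The weakest Prog-like peak kept had a −log10 p of 21.9, against 3.33 in Tumor, so the lists still end at different thresholds. Both lists hold peaks on chromosome Y (17 in Tumor and 22 in Prog-like Sox9), as EpCAM-high Sox9 does (10), whereas the CK19 lists hold 0 (Prog-like) and 1 (EpCAM-high).

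Most open regions were found in 1 of the 2 lists. Tumor-only regions made up 25.6% (25.3 to 25.9), Prog-like-only regions 56.5% (56.1 to 56.8) and shared regions 17.9% (17.7 to 18.2). At equal length the 66026 regions were split almost evenly between Tumor only (26485, 40.1%) and Prog-like only (26539, 40.2%), with 13002 in both (19.7%). A shared region joins at least 1 peak of each list, so its width is partly set by the merging. Shared regions were wide, with a median of 893 bp against 392 bp for Tumor only and 345 bp for Prog-like only. They covered 15.5 Mb, more than the 11.1 Mb of the more numerous Tumor-only regions, while Prog-like-only regions covered 21.0 Mb.

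**Figure D1:**
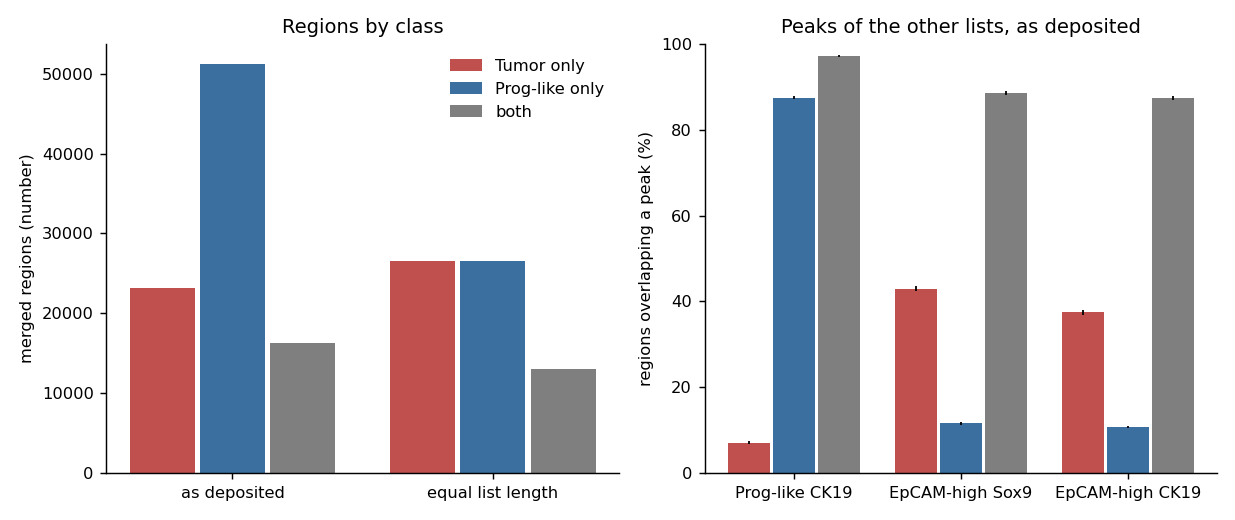
Left, number of merged regions by class for the lists as deposited and at equal length. Right, percent of each class that overlaps a peak of the other lists, with exact 95% intervals as bars. Prog-like-only regions outnumber Tumor-only regions as deposited (51174 against 23198) and nearly equal them at equal length (26539 against 26485). Prog-like-only regions, which by their class lack Tumor peaks, overlap Prog-like CK19 most (87.5%). Tumor-only regions, which by their class lack Prog-like Sox9 peaks, overlap the EpCAM-high lists most (43.0% and 37.4%).

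Shared peaks were the strong ones in both lists. In Tumor, peaks of shared regions had a median −log10 q of 14.2, against 6.0 for Tumor-only regions. In Prog-like Sox9 the medians were 54.8 and 20.6. Of the strongest decile of Tumor peaks 74.0% overlapped a Prog-like Sox9 peak, and of the weakest decile 8.93%. The same shares for Prog-like Sox9 peaks in Tumor were 61.3% and 11.2%. Much of that strong sharing lay at gene starts, where 60.6% of the strongest decile of Tumor peaks and 51.7% of the strongest decile of Prog-like Sox9 peaks were found. Away from gene starts the strongest decile overlapped the other list at 38.3% (Tumor) and 23.5% (Prog-like Sox9). The strongest decile of Tumor peaks overlapped EpCAM-high Sox9 at 94.8%, EpCAM-high CK19 at 91.1% and Prog-like CK19 at 77.8%. That of Prog-like Sox9 overlapped Prog-like CK19 at 99.99%, EpCAM-high Sox9 at 66.8% and EpCAM-high CK19 at 65.4%.

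**Figure D2:**
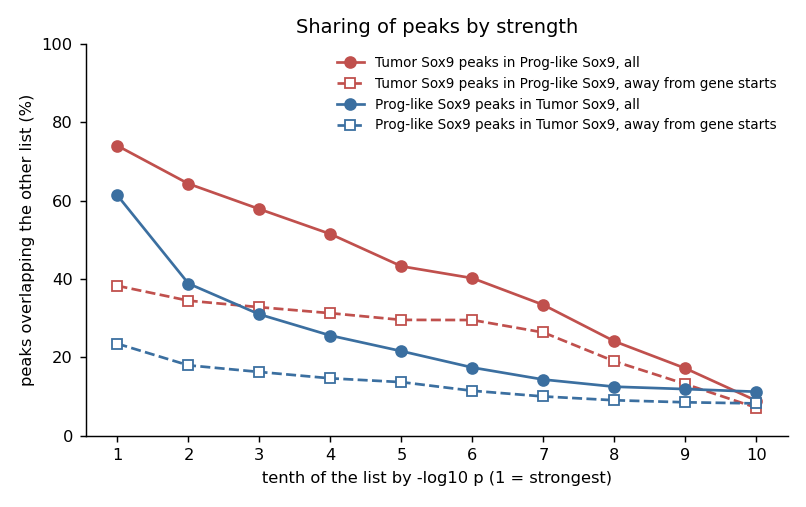
Percent of peaks that overlap the other list, for each decile of a list ordered by −log10 p (1 is the strongest); filled circles are all peaks, open squares those away from gene starts. Sharing falls from 74.0% to 8.93% in Tumor and from 61.3% to 11.2% in Prog-like Sox9, and away from gene starts it begins at 38.3% and 23.5%.

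Tumor-only regions overlapped the EpCAM-high lists more often than Prog-like CK19, but their class largely sets the low share in Prog-like CK19. The class leaves out every region with a Prog-like Sox9 peak. Prog-like CK19 held 99.99% of the strongest decile of Prog-like Sox9 peaks and 50.1% of the weakest. EpCAM-high Sox9 held a peak at 43.0% of Tumor-only regions (42.3 to 43.6), EpCAM-high CK19 at 37.4% (36.8 to 38.1) and Prog-like CK19 at 7.08% (6.75 to 7.42). The remaining 11720 (50.5%) were in no other list, and these were weak and remote: their median −log10 q was 3.80, and 35.2% lay more than 100 kb from any protein-coding gene. The 11144 Tumor-only regions that an EpCAM-high list also held had a median −log10 q of 9.76, and 12.5% lay that far out. Prog-like-only regions were mostly found again in the other Prog-like list, at 87.5% (87.2 to 87.8) in Prog-like CK19 against 11.5% in EpCAM-high Sox9 and 10.7% in EpCAM-high CK19. Their class leaves out every region with a Tumor peak, and EpCAM-high Sox9 held 94.8% of the strongest decile of Tumor peaks. The class thus partly sets the low EpCAM-high shares, and the high share in Prog-like CK19 is not particular to it. Prog-like-only regions in no other list were 5661 (11.1%), with a median −log10 q of 5.32. Regions of both lists were common to the whole series, with 97.2% in Prog-like CK19 and 88.5% in EpCAM-high Sox9.

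The classes sat in different parts of the genome. A gene-start region lies within 1000 bp of a protein-coding gene's start in the RefSeq promoter table, or, for the 4395 of 21887 genes absent from that table, within 1000 bp of either gene end. Of shared regions 58.3% were at gene starts (57.5 to 59.1), against 6.62% of Tumor-only (6.30 to 6.94) and 5.41% of Prog-like-only regions (5.22 to 5.61). Prog-like-only regions lay in gene bodies most often, at 49.8% (49.4 to 50.3) against 40.0% for Tumor only (39.4 to 40.6). Tumor-only regions lay mostly between genes, at 53.4% (52.7 to 54.0) against 44.7% for Prog-like only (44.3 to 45.2). At equal length the gene-start shares of the 1-list classes moved apart, to 10.1% for Tumor only and 4.84% for Prog-like only, while the order for gene bodies (39.0% and 50.2%) and between genes (50.9% and 44.9%) was kept. More than 500 kb from any gene lay 9.30% of Tumor-only, 2.08% of Prog-like-only and 0.469% of shared regions.

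A gene-start peak was found in Tumor at 52% of the 21887 protein-coding genes and in Prog-like Sox9 at 54.6%, or 46.3% at equal length. Both lists had one at 10261 genes. Tumor alone had one at 1126 genes (5.14%) and Prog-like Sox9 alone at 1699 (7.76%), but at equal length the counts were 2174 (9.93%) and 917 (4.19%), so which list had more depended on length. All 1126 genes held by Tumor alone as deposited stay so at equal length, because the Tumor list does not change, whereas 917 genes were held by Prog-like Sox9 alone at both lengths. Of the 1126, 73.6% had a gene-start peak in EpCAM-high Sox9 and 29.8% in Prog-like CK19. Of the 917, 99.3% had one in Prog-like CK19 and 50.5% in EpCAM-high Sox9. The shares of all genes were 57.6% in Prog-like CK19 and 59% in EpCAM-high Sox9. Of the 10261 genes held by both lists, 99.7% had one in Prog-like CK19 and 98.2% in EpCAM-high Sox9. By their class the 1126 lack a Prog-like Sox9 start peak and the 917 lack a Tumor one. The class thus largely sets the Prog-like CK19 shares and partly sets those in EpCAM-high Sox9. Locus peaks, meaning peaks in the gene or its 10 kb flanks, were more numerous at equal length in Tumor at 27.7% of genes and in Prog-like Sox9 at 25.7%, with a median difference of 0.

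Hepatocyte genes were open at their starts in Tumor far more often than in Prog-like Sox9. Of 39 members, 35 had a gene-start peak in Tumor, 12 in Prog-like Sox9 (7 at equal length) and 18 in each EpCAM-high list, beside 52%, 54.6% (46.3%) and 59% of all genes. Tumor alone had one at 24 members at both lengths, against 5.14% of all genes, and Prog-like Sox9 alone at 0, against 4.19%. Among them were the blood protein genes Alb (4 locus peaks in Tumor, 0 in Prog-like Sox9), Apoa1 (3 and 0), Apoc3 (4 and 0), Fga (4 and 0) and Hp (6 and 1). The surface receptor gene Asgr1 (1 and 0) was another. Genes of nitrogen and glucose metabolism followed: Cps1 (5 and 1) and Ass1 (4 and 0) of the urea cycle, Pck1 (4 and 0) and G6pc (2 and 0) of glucose synthesis, and Tat (4 and 0), which breaks down tyrosine. The factors Hnf4a (6 and 5), Foxa2 (4 and 2), Ppara (4 and 1) and the bile acid receptor Nr1h4 (8 and 5) also had a start peak in Tumor and none in Prog-like Sox9, although their loci held Prog-like peaks. Over the list, the median member held 2 more locus peaks in Tumor at either length, against 0 for all genes, and 31 of 39 members had more in Tumor at equal length, against 27.7% of all genes. Peaks from a bulk sample cannot tell more cells of a type from more open chromatin per cell.

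The start peaks of the 35 hepatocyte members open in Tumor ranged from the top 6.64% to the top 86.0% of the Tumor list by −log10 p, with a median at the top 34.5%, and a few members of the list went the other way. The Alb peak (chromosome 5, 90460692 to 90460995) was in the top 35.4%, that of Hnf4a (chromosome 2, 163506514 to 163507295) in the top 12.9% and that of Pck1 in the top 9.93%, while that of G6pc was in the top 85.6%. Alb and Hnf4a had a start peak in both EpCAM-high lists too, whereas Apoa1, Hp and Cps1 had one in Tumor and in none of the other 4 lists. Hp and Cps1 have no start in the promoter table and were called at either gene end. Glul, which makes glutamine, and Arg1, an arginase of hepatocytes and of some macrophages, had start peaks in both lists and more locus peaks in Prog-like Sox9 at equal length (4 against 1 for each). Afp, the fetal albumin relative, had a start peak in the Prog-like lists and not in Tumor, but that of Prog-like Sox9 stood in the top 87.9% of its list and was gone at equal length, and the locus held 4 peaks in Tumor against 2. Apoe, which hepatocytes and macrophages both use, was open in both lists, with a Tumor peak at 19698464 to 19699128 of chromosome 7 in the top 86.0% of its list and a Prog-like Sox9 peak at 19698804 to 19699305 in the top 26.5%.

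The name Prog-like was checked against bile duct and progenitor genes, and these went against it: they were open in Prog-like Sox9 less often than all genes, so Prog-like is used here only as the name of the list. Of 28 members, 9 had a gene-start peak in Prog-like Sox9 (3 at equal length), 15 in Tumor and all 28 in EpCAM-high Sox9, beside 54.6% (46.3%), 52% and 59% of all genes. Krt19 had no peak within 10 kb in Tumor or in either Prog-like list, and 6 in EpCAM-high Sox9. Sox9 held 3 locus peaks in Tumor, 0 in Prog-like Sox9, 1 in Prog-like CK19 and 3 in EpCAM-high Sox9. Sox9 had no start in the promoter table and was called at either gene end. The Tumor peak nearest to a Sox9 gene end, at 112787876 to 112788819 of chromosome 11, was in the top 0.676% of the Tumor list. It lay past the gene end at 112787757, so it may lie at the end of transcription and does not show an open promoter. Epcam, the sorting marker, had a start peak in all 5 lists, in the top 29.0% of Tumor and the top 85.6% of Prog-like Sox9, where it was lost at equal length. Tumor alone had a start peak at 9 members at both lengths, among them the keratin genes Krt8 and Krt18, the adhesion gene Cdh1 (5 locus peaks in Tumor, 2 in Prog-like Sox9), Bicc1 (9 and 1) and Pkhd1 (9 and 7), both of primary cilia and cystic disease, and the secreted protein gene Spp1 (3 and 1). Prog-like Sox9 alone had one at 1 member, the mucin gene Muc1 (1 and 4). Cftr and Krt23, with start peaks in EpCAM-high Sox9, had none in Tumor or Prog-like Sox9, so the Tumor list held part of this list only.

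Macrophage genes showed the opposite pattern to hepatocyte genes. Of 30 macrophage and Kupffer cell genes, 28 had a gene-start peak in Prog-like Sox9 (24 at equal length), 29 in Prog-like CK19, 6 in Tumor and 8 in EpCAM-high Sox9, beside 54.6% (46.3%), 57.6%, 52% and 59% of all genes. Prog-like Sox9 alone had one at 18 members at both lengths, against 4.19% of all genes, and Tumor alone at 0. The Kupffer cell genes Timd4, Vsig4, Clec4f and Marco held 14, 11, 7 and 7 locus peaks in Prog-like Sox9 and 0 in Tumor and in EpCAM-high Sox9. Mrc1 held 20 in Prog-like Sox9, 1 in Tumor and 5 in EpCAM-high Sox9. The complement genes C1qa, C1qb and C1qc, the lysozyme gene Lyz2, the growth factor receptor gene Csf1r and Adgre1, which encodes F4/80, likewise held 0 locus peaks in Tumor, against 5, 4, 5, 5, 8 and 5 in Prog-like Sox9. The list's loci held 195 peaks in Prog-like Sox9 (106 at equal length) and 28 in Tumor, and at equal length 26 of 30 members had more in Prog-like Sox9, against 25.7% of all genes. Among the 6 members open in Tumor were Nr1h3, Id3, Mertk, Cd14 and Slc40a1, and Prog-like Sox9 had a start peak at each of the 6 too.

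Genes of white blood cells in general followed the macrophage genes, while start peaks at genes of lymphocytes were few in both lists. The counts below stand beside 54.6% of all genes in Prog-like Sox9 (46.3% at equal length) and 52% in Tumor. Of 16 pan-leukocyte genes, 14 had a gene-start peak in Prog-like Sox9 (12 at equal length) and 1, Lcp1, in Tumor. Ptprc, which encodes CD45, held 14 locus peaks in Prog-like Sox9, 13 in Prog-like CK19, 2 in EpCAM-high Sox9 and 0 in Tumor, and its Prog-like Sox9 start peak was in the top 13.9% of its list. The integrin gene Itgb2 (10 and 0) and the signalling genes Dock2 (15 and 1) and Lcp2 (10 and 0) followed. Toll-like receptor genes and their adaptors, which sense microbes, had a start peak at 15 of 15 members in Prog-like Sox9 (13 at equal length) and 6 in Tumor; Tlr4 (6 and 0 locus peaks) had one in the top 2.36% of Prog-like Sox9. Dendritic cell genes had one at 6 of 13 members against 1, among them the antigen presentation genes H2-Ab1, Cd74 and Ciita, and neutrophil genes at 3 of 12 against 0. T and NK cell genes had one at 3 of 20 members in both lists, with no Cd3e locus peak in any list, and B and plasma cell genes at 2 of 12 in Prog-like Sox9 and 1 in Tumor. The loci of the B and plasma cell genes held 30 peaks in Prog-like Sox9 (15 at equal length) and 9 in Tumor, and Cd22 (3 and 0) was open in Prog-like Sox9 alone. Inflammation genes had one at 20 of 25 members in Prog-like Sox9 (15 at equal length) against 12 in Tumor, a Tumor count near that of all genes, with the chemokine genes Ccl2 and Ccl3 and the inflammasome gene Nlrp3 in Prog-like Sox9 alone. Macrophage and leukocyte genes were thus open in the same list as the Prog-like-only regions, and the part of such cells in the other differences between the 2 lists was not tested.

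Start peaks at factors of blood cells differed less between the lists than those at macrophage and pan-leukocyte genes. Of 15, 12 had a gene-start peak in Prog-like Sox9 and 8 in Tumor, and at equal length 8 had one in each. The shares of all genes were 54.6% in Prog-like Sox9 (46.3% at equal length) and 52% in Tumor. The loci of these factors held 90 peaks in Prog-like Sox9 (52 at equal length) and 18 in Tumor. Irf4 (3 locus peaks in Prog-like Sox9, 0 in Tumor) was open in Prog-like Sox9 alone and Myb (0 and 1) in Tumor alone. Fli1, a factor of blood and endothelial cells, held 15 locus peaks in Prog-like Sox9 (14 at equal length) and 0 in Tumor. Spi1 counted as open in both lists, but at opposite ends of the gene: the Prog-like Sox9 peak lay at 91082281 to 91083356 of chromosome 2 and the Tumor peak at 91115155 to 91115646, and the EpCAM-high lists had theirs beside the Tumor peak.

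**Figure D3:**
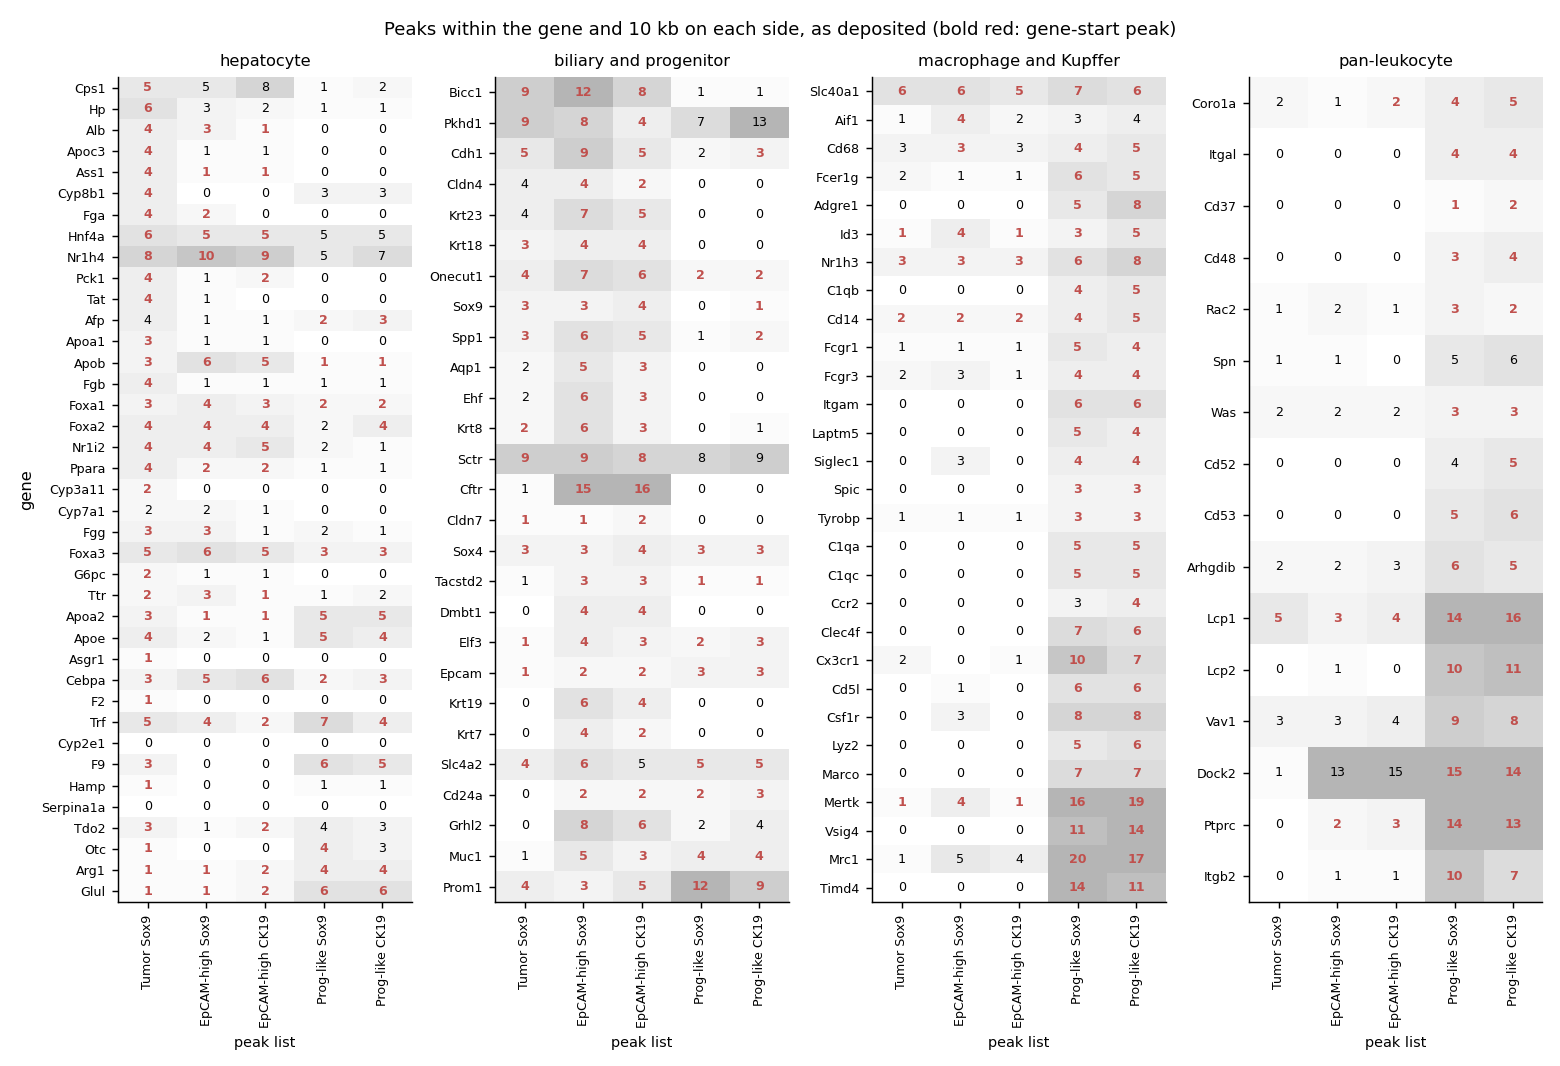
Number of peaks within each gene and 10 kb on either side, for the 5 lists as deposited, with grey depth by number; bold red marks a gene-start peak. Genes are ordered by Tumor minus Prog-like Sox9 at equal length, and hepatocyte rows such as Alb (4 and 0) are filled in the Tumor column while macrophage rows such as Timd4 (0 and 14) are filled in the Prog-like columns.

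Other cell types of the liver gave small counts, below the shares of all genes (54.6%, 46.3% at equal length, and 52% in Tumor). Endothelial genes had a gene-start peak at 6 of 20 members in Prog-like Sox9 (3 at equal length) and 2 in Tumor. Between the 2 lists, Flt1, Vwf and Lyve1 had one in Prog-like Sox9 alone and Egfl7 in Tumor alone. Both EpCAM-high lists also had one at Flt1, and EpCAM-high Sox9 at Egfl7. Mesenchymal and stellate cell genes had one at 6 of 25 members in both lists. The members were not the same: between the 2 lists, Col1a1, Snai2 and Timp1 had one in Tumor alone and Acta2 in Prog-like Sox9 alone, at both lengths. Both EpCAM-high lists also had one at Col1a1, Snai2 and Timp1, and Prog-like CK19 at Col1a1 and Snai2. Acta2 also had one in Prog-like CK19 and EpCAM-high Sox9. Col1a1 and Snai2 were called at either gene end. Genes of other tissues, a check on the method, had one at 3 of 20 members in Tumor and 2 in Prog-like Sox9.

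Growth and epithelial pathway genes had a start peak in Tumor more often than in Prog-like Sox9, and as often or more often in the EpCAM-high lists. Over all genes the shares were 52% in Tumor, 54.6% in Prog-like Sox9 (46.3% at equal length) and 59% in each EpCAM-high list. YAP and Hippo pathway genes, which relay cell contact and tension, had a gene-start peak at 16 of 18 members in Tumor, 11 in Prog-like Sox9 (8 at equal length) and 17 in each EpCAM-high list, with the target factors Tead1 (8 and 3 locus peaks), Tead3 (2 and 1) and Tead4 (5 and 0) and the co-regulator Vgll4 (12 and 8) open in Tumor alone. Growth factor receptor genes had one at 13 of 18 against 9 (7 at equal length), and at 14 and 15 in EpCAM-high Sox9 and CK19: Fgfr2 (8 and 0), Fgfr3 (2 and 0), Fgfr4 (1 and 0) and the co-receptor Klb (6 and 2) in Tumor alone, and Axl (1 and 8), a receptor of macrophages and other cells that clear dying cells, in Prog-like Sox9 alone. Epithelial junction and keratin genes stood at 15 of 26, near the share of all genes, against 9 (5 at equal length) and 20 in each EpCAM-high list, with Cdh2 (11 and 1) and Ocln (7 and 3) in Tumor alone. Foregut factor genes stood at 7 of 16, below the share of all genes, against 3, and at 15 and 13 in EpCAM-high Sox9 and CK19, with Onecut2 (6 and 0) and Hnf4g (3 and 0) in Tumor alone. Wnt pathway genes differed by less, at 16 of 30, near the share of all genes, and 14 (11 at equal length), against 26 and 27 in EpCAM-high Sox9 and CK19. Between the 2 lists, the target genes Lgr5 (2 and 0) and Axin2 (1 and 0) had one in Tumor alone. Both EpCAM-high lists also had one at each, with 5 locus peaks per list at Lgr5 and 3 at Axin2. Both likewise had one at Tead1, Tead4, Vgll4, Fgfr2, Fgfr3, Cdh2, Ocln, Onecut2 and Hnf4g, and neither had one at Klb. Prog-like CK19 had one at Tead4, Vgll4, Fgfr2, Ocln and Hnf4g.

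Cell cycle genes did not separate the lists as deposited. For the counts here, the shares of all genes were 52% in Tumor and 54.6% in Prog-like Sox9 (46.3% at equal length). E2F and cell cycle genes had a gene-start peak at 34 of 35 members in each list, or 29 in Prog-like Sox9 at equal length, and at 0 members in 1 list alone at both lengths. The Rb family genes Rb1 and Rbl2 had one in both lists and Rbl1 in neither, which does not check their deletion, since the deleted exons are not named in the labels. Housekeeping genes had one at 18 of 20 members in Tumor and 19 in Prog-like Sox9. TGF-beta pathway genes stood at 19 of 21 in each list, Notch genes at 11 of 18 in each and AP-1 genes at 10 and 11 of 12. At equal length Prog-like Sox9 had 17, 9 and 10 of these. Genes expressed in fetal liver and liver cancer had one at 6 of 17 members in Tumor and 8 in Prog-like Sox9 (4 at equal length). Each count is below the share of all genes. Between the 2 lists, Gpc3 and Igf2bp2 had one in Tumor alone and Tspan8 in Prog-like Sox9 alone. Prog-like CK19 and both EpCAM-high lists also had a start peak at Gpc3, Igf2bp2 and Tspan8. The loci of Gpc3 and Igf2bp2 held more peaks in Prog-like Sox9 (5 and 6) than in Tumor (2 and 2).

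**Figure D4:**
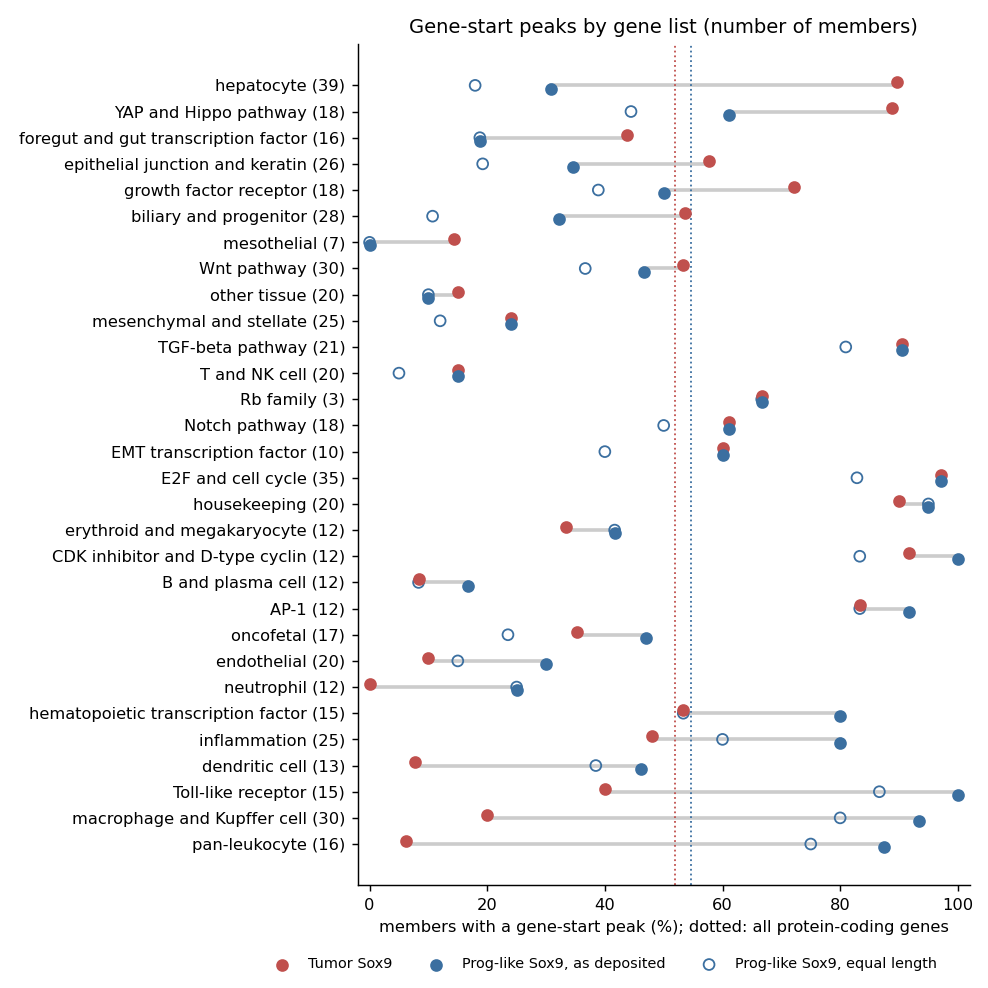
Percent of the members of 30 gene lists with a gene-start peak in Tumor Sox9 (red) and Prog-like Sox9 (blue, open at equal length), with the number of members in brackets; dotted lines are all protein-coding genes (52% and 54.6%). Hepatocyte genes stand at 35 of 39 against 12, macrophage genes at 6 of 30 against 28, and E2F genes at 34 of 35 in both.

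Promoters open in 1 list alone differed in their bases from shared ones. Of 21263 promoters of 300 bases (250 before and 50 after the start), 994 had a Tumor peak alone, 842 a Prog-like Sox9 peak alone at both lengths, and 8435 both, also at both lengths. Shared promoters were rich in CpG, with a median of 23 CpG per 300 bases, against 11 with a Tumor peak alone, 8 with a Prog-like peak alone and 4 with neither. The PU.1 motif GAGGAA of Mrc1, Vsig4, Cd68 and Marco stood in 40.9% with a Prog-like peak alone (37.5 to 44.3), 23.2% with a Tumor peak alone (20.6 to 26.0), 24.7% of shared and 27.4% of all promoters. The HNF4 motif CAAAGTCCA, printed in capitals in Cyp3a11 and Cyp8b1 above, stood in 1.91% with a Tumor peak alone (19 promoters), 0.356% with a Prog-like peak alone (3) and 0.451% of all.

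The motif differences were also seen at like CpG content. Among promoters with 5 or fewer CpG, the PU.1 motif stood in 54.6% of those with a Prog-like peak alone (48.8 to 60.3), 23.2% with a Tumor peak alone (18.6 to 28.2) and 31.0% with neither. The HNF4 motif stood in 0 of 302 (an interval of up to 1.21%), 4.18% (2.24 to 7.04) and 0.661%. The C/EBP motif TTGCNNAA, in contrast, stood in 20.9% of both 1-list classes and 15.2% with neither, and the AP-1 motif TGANTCA in 14.6% with a Prog-like peak alone, 12.5% with a Tumor peak alone and 11.8% with neither. The TEAD motif CATTCC stood in 16.1% of all promoters with a Tumor peak alone and 12.9% with a Prog-like peak alone, with intervals that overlap (13.9 to 18.5 and 10.8 to 15.4), beside 16.5% with neither and 13.6% of all. The E2F motif TTTCCCGC stood in 0.905% and 1.07% against 2.48% of shared and 1.41% of all promoters. The TATA box TATAAA, read on the gene's strand, stood in 7.44% with a Tumor peak alone and 7.13% with a Prog-like peak alone, beside 13.3% with neither and 8.26% of all. All motifs but TATAAA were read on both strands and may overlap each other, and a match is a run of letters, not bound protein.

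Outside the gene lists, the genes whose locus peaks differed most at equal length were long ones. In Tumor they were Lrrc4c (25 against 0), Csmd3 (24 against 0), Lrp1b (24 against 1), Ptprd (23 against 0) and Tenm3 (23 against 0), genes of neurons or of very large membrane proteins. EpCAM-high Sox9 held 0, 1, 1, 9 and 10 peaks at these 5 at equal length, and EpCAM-high CK19 0, 0, 3, 11 and 2. As deposited EpCAM-high CK19 held 5, 26, 18, 32 and 14, which is more than Tumor at Csmd3 and Ptprd. Among these 5, only Csmd3 had a start peak in Tumor. As deposited, Prog-like Sox9 also held 12 peaks in Csmd3 and 14 in Lrp1b, all but 1 of which were below the strength kept at equal length. Equal length keeps Tumor peaks down to a −log10 p of 3.33 and Prog-like Sox9 peaks down to 21.9. In the 5 Mb windows around the 5 genes, Tumor-only regions had median −log10 q of 2.70, 2.66, 3.37, 2.74 and 8.34, against 6.21 over all windows. In Prog-like Sox9 the genes that differed most were Tenm4 (26 against 0 in Tumor), the Notch co-activator gene Maml2 (27 against 2), Zfhx3 (34 against 10), Hdac9 (25 against 2) and Med12l (25 against 2). At equal length Prog-like CK19 held 21, 22, 33, 22 and 22 peaks at these 5, and EpCAM-high Sox9 19, 13, 18, 6 and 8.

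Some of the genes under 50 kb were closer to the cell types above. Tumor led at Slc2a2, the glucose transporter of hepatocytes (9 against 0), Adh7, an alcohol dehydrogenase (9 against 1), Gm42346 (8 against 0), Mtarc2, a mitochondrial reductase (11 against 3), and Rgs8 (8 against 0). Prog-like Sox9 led at P2ry12, a purine receptor of macrophages and platelets (16 against 2), Akna (11 against 1), Plek, the pleckstrin of platelets and leukocytes (10 against 0), Atp6v0d2, a proton pump subunit of macrophages and osteoclasts (11 against 2), and the cytokine receptor gene Il21r (9 against 0). P2ry12 lies within Med12l, so peaks there count for both genes. As deposited, Gm42346 held 8 peaks in Tumor, 6 in Prog-like Sox9 and 8 in Prog-like CK19. Slc2a2 held 8 peaks in each EpCAM-high list and 1 in each Prog-like list as deposited, while Plek held 11 and 12 in the Prog-like lists and 0 in EpCAM-high Sox9.

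The strongest regions of 1 list lay away from gene starts. For Tumor the highest −log10 q of a region with no Prog-like Sox9 peak was 125, on chromosome 14 from 114062605 to 114063149, between genes, 1029 kb from Gpc5 and in no other list. The next lay in Bche (chromosome 3, 73673115 to 73673893), in Xkr4 (chromosome 1, 3514529 to 3515474), near Adgrl2 (chromosome 3, 148428827 to 148429861) and near Cdh26 (chromosome 2, 178662186 to 178662938). Both EpCAM-high lists held these 4, and Prog-like CK19 held all but the one near Adgrl2. For Prog-like Sox9 the highest, at 436, lay on the unplaced contig Un_JH584304 from 27878 to 28231. The others lay near Aga (chromosome 8, 53496042 to 53496704; 412), near 1700017N19Rik (chromosome 10, 100834836 to 100835361; 402), in Cacna2d1 (chromosome 5, 16355751 to 16356334; 393) and in Fat3 (chromosome 9, 16215088 to 16215849; 378). Prog-like CK19 held all 5, and among them only the region in Fat3 had a peak in the EpCAM-high lists.

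Along the chromosomes the balance of the 2 classes was uneven. At equal length Tumor-only regions were 49.9% of the regions held by 1 list, with the lowest shares on chromosomes 4 (41.7%, 39.8 to 43.6) and 13 (41.9%, 39.9 to 43.8) and the highest among autosomes on chromosome 11 (58.0%, 55.9 to 60.0). Chromosomes 4 and 13 were also below the genome as deposited (23.7% and 25.1% against 31.2%), whereas chromosome 11 then lay below it too (29.7%). In windows of 5 Mb, Prog-like-only regions led most on chromosome 4 from 55 to 60 Mb (127 against 39), a window with Klf4, Txn1 and Lpar1, on chromosome 13 from 5 to 10 Mb (104 against 23), with Klf6 and Pfkp, and on chromosome 15 from 5 to 10 Mb (109 against 36), with the leukocyte adaptor gene Fyb, Dab2, Ptger4 and Il7r. Tumor-only regions led most on chromosome 10 from 105 to 110 Mb (137 against 14), with Syt1 and Nav3, on chromosome 14 from 110 to 115 Mb (103 against 2), where Slitrk5 and Slitrk6 are the 2 protein-coding genes, and on chromosome 16 from 80 to 85 Mb (107 against 13), with Ncam2 and App.

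Tumor-only regions also led in stretches with few genes, and there they were weak. In the windows named on chromosomes 14 and 16, their median −log10 q was 3.16 and 3.42, and 4 of 103 and 7 of 107 lay in an EpCAM-high list. In the 37 windows with 5 or fewer protein-coding genes, Tumor-only regions were 83.2% of 1-list regions at equal length (1806 against 364; 81.6 to 84.8). Their median −log10 q was 2.94, and 9.47% lay in an EpCAM-high list, against 47.7% in windows with 50 or more genes. The Tumor-only share in these windows was 62.7% as deposited and 57.2% at equal length after peaks with −log10 q under 5 were left out. It was 52.7% (47.8 to 57.5) with the strongest 20000 peaks of each list. Over all windows the share was 49.9% at equal length and 31.2% as deposited. It was 49.9% without peaks of −log10 q under 5 and 49.96% with the strongest 20000. The lower share as deposited thus went with a lower share over all windows. In windows with 50 or more genes the classes were even at equal length (7850 Tumor only against 7845), and the other 3 settings gave 27.4%, 56.2% and 57.3%.

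**Figure D5:**
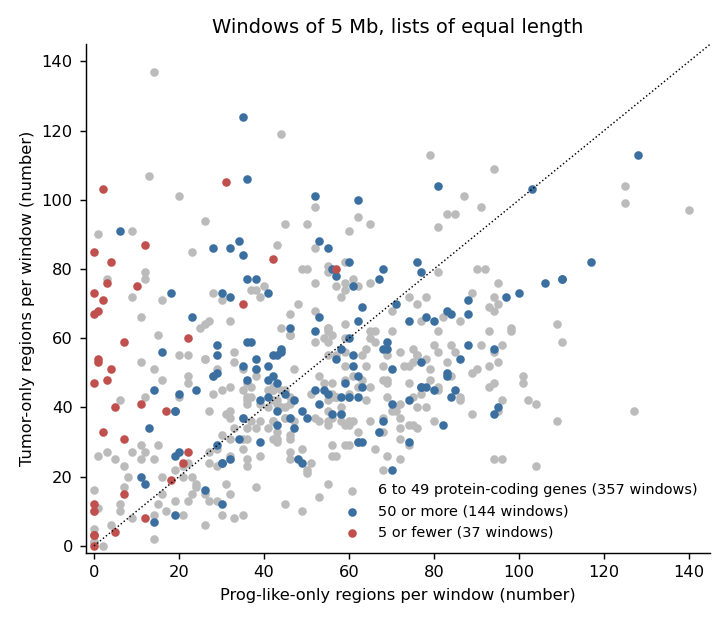
Each point is a 5 Mb window of the genome, with its number of Prog-like-only regions (horizontal) and Tumor-only regions (vertical) at equal list length; the dotted line marks equal numbers. Windows with 5 or fewer protein-coding genes (red) lie mostly above the line, 34 of 37 with more Tumor-only regions.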

How the data were processed

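ATAC-seq libraries were made from sorted YFP+ mouse liver cells, per the labels' protocols. Per the submitters' processing notes, deepTools, HOMER, MACS2 and Bowtie 1.1.2 were used with build mm10, in roles that are not stated. Pooling of libraries, treatment of duplicates and the transposase offset: not given in the sources used here. Each of the 5 deposited files is a narrowPeak list for 1 condition. In that layout, the authors' fold enrichment is a linear ratio over background, and the deposited −log10 p and −log10 q values give the caller's significance, with a lowest −log10 q of 1.30 in Tumor, the value of a q of 0.05. The deposited score column restates −log10 q and was not used. These values are the authors' and were used to describe, order or select peaks inside a list. Set side by side they describe the lists and are no measure of relative openness. Peak starts and ends are positions in the deposited lists, shown 1-based.

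Peaks were merged into regions, classed and counted at genes with Python 3.11.15, pandas 2.3.3 and numpy 2.4.6, and binomial intervals came from scipy 1.17.1. Code for merging, overlaps, gene-start calls and locus counts was tested on simulated data. Gene positions and promoter sequences were from the RefSeq annotation of GRCm38.p6, for 21887 protein-coding genes, of which 17492 had a start in the promoter table. Genes without one were called at either end, so that a peak there may lie at the end of transcription. Among the genes named, these include Cps1, Hp, Bicc1, Cdh1, Krt19, Sox9, Itgb2, Cd74, H2-Ab1, Ciita, Vwf, Lyve1, Col1a1 and Snai2. Ccl2, Tlr4, Adgre1, Spi1, Rb1, Tead1, Tead4, Lgr5, Cdh2, Onecut2 and Hnf4g are further examples. Of 560 genes in 30 lists (567 entries), 558 matched. The class of regions, the gene lists and the rules were chosen with earlier results of these data known, and nothing here is independent support for them.

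The genes named were (a) of each list, up to 3 per direction with a gene-start peak in 1 list alone at both lengths, ordered by their difference in locus peaks at equal length. Added were (b) the 5 genes and (c) the 5 genes under 50 kb per direction with the largest such difference, (d) the 5 strongest 1-list regions by −log10 q in each direction, and (e) the 3 windows of 5 Mb per direction with the largest difference. Named at any value were Alb, Afp, Hnf4a, Sox9, Krt19, Epcam, Thy1, Rb1, Rbl2, Rbl1, Adgre1, Ptprc, Spi1, Pecam1, Cd3e and Col1a1. Some genes that meet this rule are not reported here, and all list counts include them. Other genes and the printed promoters were chosen as examples after their values were seen. Alternatives were equal length by −log10 p or by fold enrichment, autosomes alone, −log10 q of at least 5, an overlap of 50% of either peak, loci taken with 50 kb flanks, and a start window of 2500 bp. Added after seeing the data were the strongest 20000 peaks and either gene end for every gene.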

Additional observations from a re-analysis of the deposited data

How the results depend on the processing

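The 2 lists differ in length and in −log10 q, there is 1 list per condition, and read depth is unknown, so counts of regions and genes depend on where a list is ended. The share of Tumor-only regions was 25.6% as deposited and 40.1% at equal length by −log10 p, 40.1% by fold enrichment, 18.3% with −log10 q of 5 or more, 38.2% with the strongest 20000 peaks and 26.0% with an overlap of 50%. The shared class moved less, from 17.9% to 19.7%, 19.6%, 18.6%, 23.7% and 17.3% in the same order. Tumor-only regions at gene starts made up 6.62% as deposited, then 10.1%, 10.2%, 8.66% and 20.8% in the first 4 of these settings, 9.99% with a window of 2500 bp and 7.35% with either gene end for every gene. Their share in EpCAM-high Sox9 was 43.0%, then 35.3%, 35.2%, 55.7% and 39.6% in those 4 settings, and the share of Prog-like-only regions in Prog-like CK19 was 87.5%, then 88.1%, 86.1%, 91.2% and 82.7%. Genes with a start peak in Tumor alone numbered 1126, and 2174, 2106 and 2559 at equal length by −log10 p, by fold enrichment and with the strongest 20000 peaks; those in Prog-like Sox9 alone numbered 1699, and 917, 967 and 784. Tumor minus Prog-like Sox9 was therefore -573 as deposited and -1002 with −log10 q of 5 or more, but turned to 1257, 1139 and 1775 in these 3 settings.

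The hepatocyte difference (23 more members with a start peak in Tumor) and the macrophage difference (22 more in Prog-like Sox9) kept their direction in every setting run, with the macrophage difference at -8 with the strongest 20000 peaks. Small list differences turned to favour Tumor. At equal length by −log10 p this held for CDK inhibitor genes (1 member) and oncofetal genes (2), and the median locus difference of AP-1 genes was 0.5. By fold enrichment it held for CDK inhibitor (1), oncofetal (1), hematopoietic factor (1), housekeeping (1) and AP-1 genes (2, median 1). With the strongest 20000 peaks it held for dendritic cell, CDK inhibitor, AP-1, inflammation and oncofetal genes (1 each) and housekeeping genes (2). Chromosome 11 lay above the genome's Tumor-only share at equal length and below it as deposited (-1.50 points). Windows with few genes went from 83.2% to 62.7% as deposited. They stood at 57.2% at equal length without peaks of −log10 q under 5, and at 52.7% with the strongest 20000 peaks. Over all windows the share went from 49.9% to 31.2%, 49.9% and 49.96% in the same order. No paired analysis was possible because each condition has 1 peak list that is tied to no replicate, and for the same reason no replicate could be left out. The cause of these changes was not tested; equal length leaves out Prog-like peaks alone, a −log10 q of 5 or more keeps 70.8% of Tumor and 91.6% of Prog-like Sox9 peaks, and the strongest 20000 shortens both lists.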
